A study of Mus musculus with 3 samples.

Results

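Squamous and wound keratins, 7 genes in all, were followed through the sorted cells of the mouse larynx: *Krt13* and *Krt4*, *Krt6a*, *Krt6b* and *Krt16*, and *Krt1* and *Krt10*. They were chosen by gene symbol and made up 7 of the 33696 features counted in each library. Cells came from larynges of Lrig1CreERT2/+; ROSA26CAG-LSL-tdTomato/+ mice, in which CreERT2 is driven by the *Lrig1* promoter, so that tdTomato marks cells that expressed *Lrig1* while Cre was active, together with their descendants. Cre was activated by tamoxifen on consecutive days and tissue was taken 24 h after recombination, with 10 larynges (5 male, 5 female) pooled for each of n = 3 libraries. Wild-type and ROSA26CAG-LSL-tdTomato/+ larynges set the sorting gates and are not among the samples analysed here. All 3 libraries therefore belong to 1 condition, the age of the mice is not given in the sources used here, and the comparisons below are between groups of cells in the same libraries. No feature counts tdTomato or Cre, and the counts therefore hold no check of the sort.

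Keratins are obligate heteropolymers: a type I chain pairs with a type II chain to build the intermediate filaments of epithelial cells. *Krt13* (type I) and *Krt4* (type II) are the pair of suprabasal cells in moist, non-cornified squamous epithelia such as that covering the vocal folds, the mouth and the oesophagus. *Krt6a* and *Krt6b* (type II) and *Krt16* (type I) are known as wound or hyperproliferation keratins, since keratinocytes at a wound edge switch them on. *Krt1* (type II) and *Krt10* (type I) are the pair of suprabasal cells in cornified epidermis.

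On GRCm39, all 7 genes lie on the minus strand of the type I and type II keratin clusters. The type I genes are on chromosome 11, with *Krt10* at 99276072 to 99280195, *Krt13* at 100008153 to 100012392 and *Krt16* at 100136917 to 100139795, each with 8 exons. The type II genes are on chromosome 15, with *Krt6b* at 101584458 to 101588722, *Krt6a* at 101598345 to 101602742, *Krt1* at 101753861 to 101759229 and *Krt4* at 101826970 to 101833170, each with 9 exons. *Krt6a* and *Krt6b* are separated by 9.62 kb. The 2 genes are close copies, but for every member 0 of the 411 windows of 90 bases in the last 500 transcript bases, the end that a 3′ library reads, matched another keratin gene exactly.

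The promoters of *Krt13*, the type I mucosal keratin, and *Krt10*, the type I cornified keratin, are shown because these genes behaved differently below. RefSeq windows on GRCm38.p6 were held for these 2 of the 7 members, and *Krt4*, *Krt6a*, *Krt6b*, *Krt16* and *Krt1* had no entry. *Krt13* had 2 listed starts, of which the more upstream is shown. Each line gives the 250 bases before the start of the gene, 5′ to 3′ on the minus strand, from chr11:100121567-100121816 for *Krt13* and chr11:99389365-99389614 for *Krt10*. Capitals mark TATAAA (the TATA box), TGANTCA and CACCC (the letters Krüppel-like factors bind), searched on both strands. TGANTCA is a loose form of the AP-1 site, which has C or G at the N.
Krt13: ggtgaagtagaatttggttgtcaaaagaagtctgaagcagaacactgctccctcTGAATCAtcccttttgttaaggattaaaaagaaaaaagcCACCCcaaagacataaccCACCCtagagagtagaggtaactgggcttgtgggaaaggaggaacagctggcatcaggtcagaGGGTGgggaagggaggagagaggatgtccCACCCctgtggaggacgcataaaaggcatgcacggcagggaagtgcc
Krt10: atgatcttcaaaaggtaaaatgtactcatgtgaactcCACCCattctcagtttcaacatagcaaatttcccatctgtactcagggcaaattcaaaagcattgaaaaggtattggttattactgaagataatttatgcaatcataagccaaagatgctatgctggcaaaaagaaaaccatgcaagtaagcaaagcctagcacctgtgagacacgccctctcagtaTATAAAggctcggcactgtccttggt
The *Krt13* window held 1 TGANTCA match, 196 to 190 bases before the start, with 4 CACCC matches and 0 TATAAA matches. That match reads TGAATCA, with A at the N. The window of the other *Krt13* start, not shown, held 2 TGANTCA matches, both TGACTCA, at 183 to 177 and 34 to 28 bases before that start. It had 1 CACCC match and 0 TATAAA matches. The *Krt10* window held 1 TATAAA match, 26 to 21 bases before the start, with 1 CACCC match and 0 TGANTCA matches. Among 32851 promoter windows of the same length, 12.4% held TATAAA, 6.75% TGANTCA and 52.0% CACCC. These matches are letters only, and binding was not measured.

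The deposited matrices held 60530 barcodes, with 147898790 to 413632222 UMIs (unique molecular identifiers, each counting 1 captured molecule) in a library. After quality filters and doublet removal 44542 cells remained, 7201 to 24119 in a library, with median depths of 10301 to 14098 UMIs. Libraries shared 46 to 165 barcode sequences pairwise. Library 3 also held 3475 barcodes that carried markers of at least 5 of 6 unlike cell classes at once, against 52 in library 1 and 2 in library 2, and these were set aside. Of the cells kept, 28200 were epithelial. Classes were set by fixed UMI gates on marker genes that exclude the 7 keratins, and the gates were revised once after marker levels had been seen. Basal-like cells (14332) had at least 3 UMIs of *Krt5* and 1 of *Trp63*, both genes of basal cells, and passed no gate of a differentiated class. Squamous-like cells (500; 95, 76 and 329 in libraries 1, 2 and 3) had at least 2 UMIs of at least 2 of 8 markers of suprabasal squamous cells, among them *Sbsn*, *Krtdap*, *Cnfn* and *Sprr3*. Secretory-like cells (8537) had at least 3 UMIs of 1 of 4 secretory genes, and 277 cells passed both the squamous and the secretory gate. Check markers outside the gates were highest in their own class, among these 3, for 6 of 6 squamous and 6 of 6 secretory genes but only 3 of 6 basal genes (*Itga6*, *Col17a1* and *Krt15* were higher in Squamous-like cells). Of the squamous ones, *Ivl* was nearly equal in Squamous-like and Basal-like cells (3.66 and 3.46 CPM), and *Dsg1a* was near 0 (0.16 CPM in Squamous-like cells). Squamous-like cells were deeper, at a median of 25505 UMIs, than Basal-like cells, at 15502.5, so shares of cells with a UMI are given after thinning every cell to 5000 UMIs. This left out 4 Squamous-like and 821 Basal-like cells.

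The 7 keratins fell into 3 groups by where they were found. *Krt13*, *Krt4* and *Krt6a* were abundant, present in Basal-like and Secretory-like cells and several times higher in cells with squamous markers. *Krt6b* and *Krt16* were near 0 in most epithelial cells and concentrated in very few. *Krt1* and *Krt10* were low and nearly level across Basal-like, Squamous-like and Secretory-like cells. Levels are CPM, the UMIs of a gene per 1000000 UMIs in the summed cells of a class, and since each UMI is 1 molecule, no scaling by gene length was applied. Fewer expressing cells and fewer molecules in each cell cannot be told apart in such sums.

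*Krt13* was the most abundant of the 7 in Squamous-like cells. Its level there was 4545, 2268 and 3570 CPM in libraries 1, 2 and 3, against 497, 212 and 306 CPM in Basal-like cells and 204, 224 and 306 CPM in Secretory-like cells. Every Squamous-like library lay above every Basal-like library, while the Basal-like and Secretory-like ranges overlapped. Cells that passed both the squamous and the secretory gate held 5518, 3071 and 7153 CPM, a range that overlapped that of Squamous-like cells. Thinned to 5000 UMIs, 67.3% ± 9.38 of Squamous-like cells (SD, n = 3) had a *Krt13* UMI, compared with 19.3% ± 4.69 of Basal-like and 14.9% of Secretory-like cells. Fibroblast-like cells, which should lack the gene, had one in 4.94% ± 5.02 at a median depth of 10308 UMIs before thinning. Without thinning, the share was 77.4% in Squamous-like and 32.1% in Basal-like cells.

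*Krt4*, the type II partner of *Krt13*, was more evenly spread. It stood at 1479, 1093 and 1544 CPM in Squamous-like cells of libraries 1, 2 and 3, at 425, 295 and 432 CPM in Basal-like cells and at 303, 319 and 344 CPM in Secretory-like cells. Squamous-like libraries were again all above the Basal-like ones, and cells passing both gates, at 2187 ± 434 CPM, were above the Squamous-like ones with no overlap. *Krt4* was found in 82.6% ± 5.49 of thinned Squamous-like and 51.8% ± 6.56 of thinned Basal-like cells, with 4.90% of Fibroblast-like cells as background. The type I partner therefore increased more than the type II partner: the ratio of *Krt13* to *Krt4* UMIs was 0.866 ± 0.263 in Basal-like cells and 2.49 ± 0.522 in Squamous-like cells (SD, n = 3).

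*Krt6a* followed *Krt13* at a lower level. Squamous-like cells held 1028, 478 and 1449 CPM and Basal-like cells 157, 78.6 and 172 CPM in libraries 1, 2 and 3. Library 2 was the lowest in both classes, and the classes did not overlap. A *Krt6a* UMI was present in 61.7% ± 10.7 of thinned Squamous-like, 17.8% ± 3.93 of Basal-like, 10.3% of Secretory-like and 2.01% of Fibroblast-like cells. By class, then, this wound keratin was neither absent from Basal-like cells nor limited to cells with squamous markers.

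*Krt6b*, the close copy of *Krt6a*, and *Krt16*, the type I wound keratin, were far rarer. *Krt6b* was at 12.2, 1.55 and 13.8 CPM in Squamous-like cells and at 0.43, 0.08 and 0.77 CPM in Basal-like cells. *Krt16* was at 7.43, 1.55 and 66.2 CPM in Squamous-like cells and at 1.83, 1.13 and 2.25 CPM in Basal-like cells, so that library 2 overlapped the Basal-like range and library 3 was far above the others. In library 2 *Krt6b* rested on 3 UMIs in Squamous-like and 4 in Basal-like cells. The 1.55 CPM of *Krt16* in its Squamous-like cells is also what 3 UMIs give. Both were highest in cells passing the squamous and secretory gates, at 25.9, 36.0 and 222 CPM for *Krt6b* and 41.3, 2.62 and 448 CPM for *Krt16*. In thinned Squamous-like cells 3.98% ± 2.52 had a *Krt6b* UMI and 4.01% ± 4.01 a *Krt16* UMI, against 0.17% and 0.48% of Basal-like and 0.09% and 0.11% of Fibroblast-like cells.

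*Krt1* and *Krt10*, the cornified pair, did not differ between Squamous-like and Basal-like cells beyond the spread between libraries. *Krt1* was at 7.87, 8.27 and 8.49 CPM in Squamous-like cells and at 6.90, 6.65 and 9.13 CPM in Basal-like cells, ranges that overlapped. Its highest level was in Ciliated-like cells, at 14.9, 18.2 and 13.4 CPM, above the next class with no overlap. *Krt10* was at 24.5, 22.2 and 25.7 CPM in Squamous-like and 21.3, 21.7 and 25.8 CPM in Basal-like cells. Outside the epithelium it was about as high in Fibroblast-like cells, at 19.5 ± 4.04 CPM, and in Muscle satellite-like cells, at 29.6 ± 7.80 CPM (SD, n = 3). It was lower in Ciliated-like cells, at 8.15 to 12.3 CPM, and in Endothelial-like (5.85 to 6.01 CPM) and Macrophage-like cells (5.49 to 6.30 CPM, on 10 UMIs), which could be summed in 2 libraries. The thinned share of cells with a *Krt10* UMI was 9.34% in Squamous-like, 10.2% in Basal-like and 8.45% in Fibroblast-like cells, so these shares differed by less than their spread. For *Krt1* it was 4.71%, 3.96% and 0.11%, which placed the gene in epithelial cells at a low level. At this gate the label of squamous keratins held in these counts for *Krt13*, *Krt4* and *Krt6a* and not for *Krt1*, while *Krt10* was higher where more squamous markers were asked for, as given below.

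**Figure D1:**
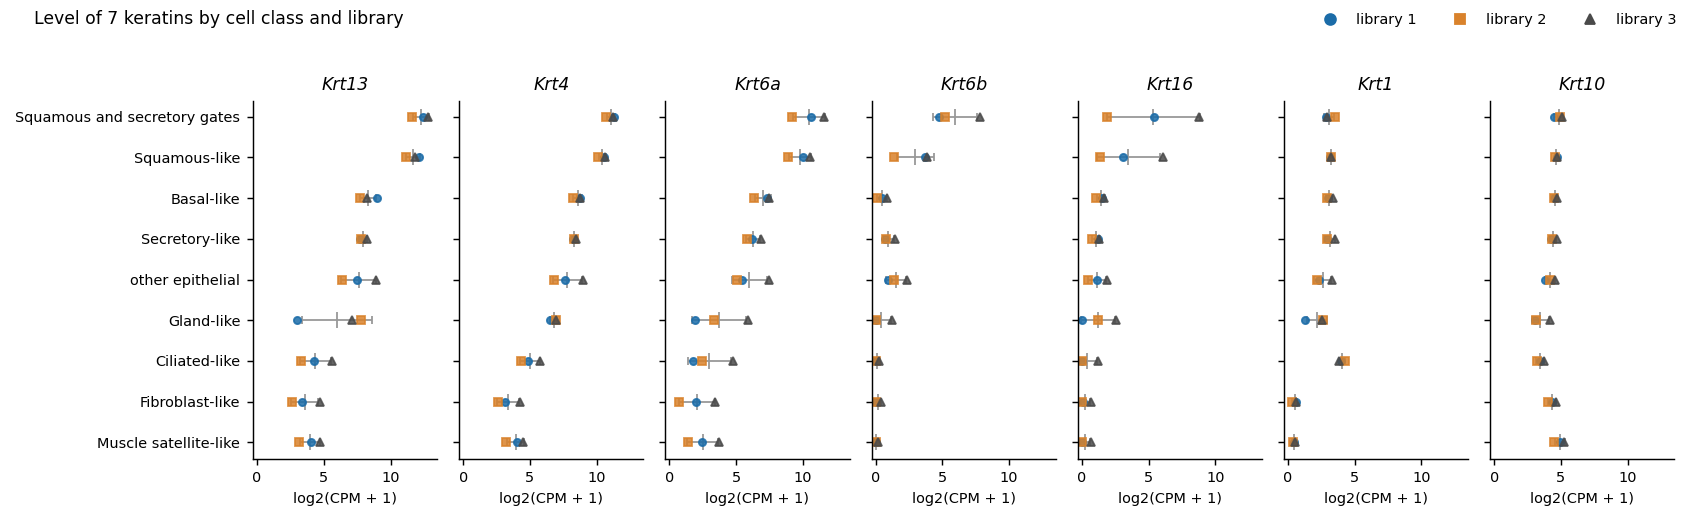
Level of each of the 7 keratins as log2(CPM + 1) by cell class, 1 panel per gene; points are libraries 1 to 3 and bars the mean ± SD. *Krt13*, *Krt4* and *Krt6a* stand highest in the 2 classes that pass the squamous gate, *Krt6b* and *Krt16* have their highest means there, *Krt1* is highest in Ciliated-like cells, and *Krt10* is lower in Ciliated-like and Gland-like cells than in Squamous-like cells.

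The comparison of Squamous-like with Basal-like cells asked which keratins differ between cells of the basal and cells of the squamous gate. Summed counts were tested with edgeR's quasi-likelihood test over all 15459 genes, with Benjamini-Hochberg adjustment. This fit treats both sums of a library as independent. Its p-values therefore mix differences between the 3 libraries with the spread of the contrast within them. Of the 7 members 5 were higher in Squamous-like cells (*Krt13*, *Krt4*, *Krt6a*, *Krt6b* and *Krt16*) and 0 lower, where 6.85% of all genes were called higher. The member median was 2.98 on the log2 scale and that of all genes -0.02. *Krt13* was 11.0-fold higher (log2 3.46 ± 0.38 SE, edgeR adjusted p = 0.00267), *Krt4* 3.84-fold (1.94 ± 0.20, adjusted p = 0.00226) and *Krt6a* 7.87-fold (2.98 ± 0.44, adjusted p = 0.00595). The folds of the rare genes were larger and less certain, 23.4-fold for *Krt6b* (4.55 ± 0.80, adjusted p = 0.0116) and 18.0-fold for *Krt16* (4.17 ± 0.91, adjusted p = 0.0237). *Krt1* (0.23 ± 0.20) and *Krt10* (0.20 ± 0.13) did not pass, at edgeR adjusted p = 0.462 and 0.341. The 6 fibroblast markers summed to 55.9 to 71.7 CPM in Squamous-like and 226 to 352 CPM in Basal-like cells, without overlap, and their part in these folds was not tested.

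The size of the *Krt16* fold rested on library 3: without it the log2 fold was 1.71 (edgeR adjusted p = 0.19), while *Krt6b* kept its fold, at log2 4.85, and missed the threshold (adjusted p = 0.0515). Without library 1 only *Krt13* was called (log2 3.60, edgeR adjusted p = 0.0449), where 17 of 15640 genes were higher. The other folds were about as large as before in that fit, at log2 1.97 for *Krt4* (adjusted p = 0.0827), 3.06 for *Krt6a* (0.145), 4.36 for *Krt6b* (0.203) and 4.54 for *Krt16* (0.198). With the library as a block, 4843 genes were called in place of 2045 (17.3% of genes higher) and the same 5 members passed. Stricter gates asked for 3 squamous markers in place of 2, and for at least 5 UMIs of *Krt5* and 2 of *Trp63*. With them *Krt10* was also called, at log2 0.62 (edgeR adjusted p = 0.021), where 2127 of 15037 genes were higher.

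Other genes of squamous differentiation differed with these keratins, where 986 of the 15459 genes tested were called lower. The squamous gate picks cells by markers of the same kind, so counts of related genes were partly set by the gate. Of 15 other keratins tested, 7 were higher and 0 lower, among them *Krt36* (log2 2.90), *Krt78* (2.67), *Krt80* (2.27) and *Krt76* (2.13), a keratin of oral mucosa. Of 22 genes of the cornified envelope and squamous differentiation, 15 were higher and 1 lower, among them *Lypd3* (3.67), *Csta1* (3.47), *Sprr1a* (3.37) and *Calml3* (2.94). Of 24 squamous regulators, 12 were higher and 2 lower, led by the transcription factors *Grhl3* (3.07), *Zfp750* (2.75), *Ovol1* (2.17) and *Grhl1* (1.27). Of 18 wound edge and hyperproliferation genes 2 were higher and 0 lower, the EGF family ligand *Ereg* (1.73) and the hyaluronan receptor *Cd44* (0.86). Of 20 cycling genes 1 was higher, *Ccnb1* (2.24), and of 20 dissociation response genes none was higher or lower in edgeR's test. With the library as a block these counts were larger for cycling genes, 20 of 20 higher (median log2 1.62), and for wound edge genes, 7 higher and 1 lower, with *Fosl1* (1.72), *Areg* (1.62) and *Plau* (1.29) added to *Ereg* among those of largest fold. In that fit 10 other keratins were higher and 2 lower, 16 cornified genes higher and 1 lower, 13 regulators higher and 2 lower, and 4 dissociation response genes higher and 4 lower. Of all 15459 genes the block called 2674 higher and 2169 lower, so the counts of dissociation response genes were near those shares. The summed level of the cycling genes was 416 to 1422 CPM in Squamous-like and 382 to 594 CPM in Basal-like cells.

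Counting how many of the 8 squamous markers an epithelial cell carried, at 2 or more UMIs each, ordered the members over 4 groups of cells. This is a description in which a deeper cell can pass more markers. *Krt13* averaged 184 CPM in the 22391 cells with none, 557 with 1, 2818 with 2 and 8673 ± 1753 CPM in the 172 cells with 3 or more, and the thinned share with a UMI was 14.3%, 25.4%, 60.0% and 90.6%. *Krt4* was in 38.3% of cells with no marker, 67.9% with 1, 82.0% with 2 and 88.3% with 3 or more, while *Krt6a* stood at 20.2% with 1 marker, 56.3% with 2 and 83.1% with 3 or more. By these mean shares *Krt4* was already common in cells with none and had its largest step between none and 1 marker. *Krt13* and *Krt6a* had theirs between 1 and 2 markers, the edge of the gate. In library 2 alone, *Krt13* was at 19.5%, 47.3% and 88.9% with 1, 2 and 3 or more markers, so its largest step there was the last.

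The rare wound keratins appeared last along the same count. *Krt6b* averaged 7.76 CPM with 2 markers and 137 ± 121 CPM with 3 or more, and *Krt16* 10.2 and 240 ± 336 CPM, with SDs as large as the means. *Krt1* had means of 7.05 to 9.38 CPM over the 4 groups, the last with an SD of 9.21 CPM from libraries at 1.11, 19.3 and 7.74 CPM. *Krt10* was at 20.6, 22.7, 23.4 and 32.1 CPM, with thinned shares of 9.27%, 10.3%, 11.0% and 13.4%. Every library with 3 or more markers (27.0 to 38.1 CPM) was above every library with none (18.0 to 24.8 CPM), a far smaller step than that of the mucosal pair. *Mki67*, a marker of cycling cells, averaged 13.9, 25.0, 44.9 and 87.3 CPM, and *Lrig1* 84.8, 98.9, 72.3 and 29.7 CPM. Of the basal keratins, *Krt5* and *Krt14* had higher means with more markers, *Krt5* at 1060, 1278, 2124 and 3550 ± 901 CPM and *Krt14* at 668, 683, 1125 and 2343 ± 1272 CPM. *Krt15* was at 3677, 5435, 6644 and 5709 ± 1646 CPM, lower in the last group than in the one before in libraries 1 and 3 and higher in library 2. As few as 18 cells of a library fell in the last group.

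**Figure D2:**
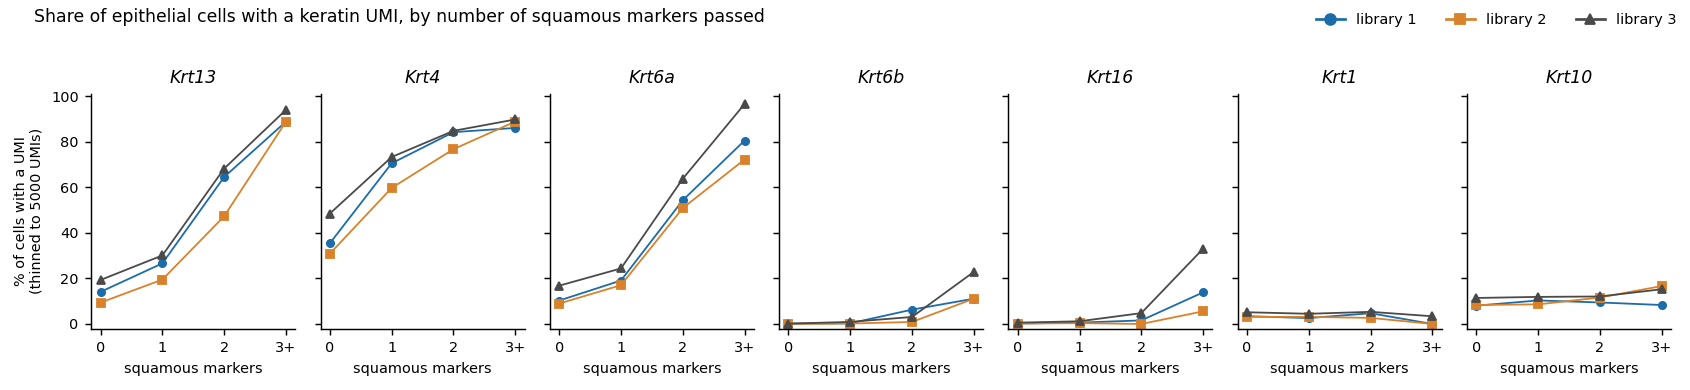
Share of epithelial cells with a UMI of each keratin, in percent after thinning to 5000 UMIs, against the number of squamous markers carried (0, 1, 2, 3 or more); each line joins the points of 1 library. *Krt4* goes from 38.3% with none to 67.9% with 1 marker, *Krt13* and *Krt6a* climb between 1 and 2 markers, *Krt6b* and *Krt16* reach 15.0% and 17.5% in the last group, *Krt1* stays under 6%, and *Krt10* goes from 9.27% to 13.4%.

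Within the epithelium the UMIs of these genes were unevenly held. The 1% of epithelial cells richest in *Krt13* held 45.1% ± 2.44 of its UMIs, and the corresponding share was 19.2% for *Krt4*, 40.2% for *Krt6a*, 97.3% for *Krt6b* and 97.6% for *Krt16*, against 17.8% for *Krt1* and 9.83% for *Krt10*. For *Krt6b* and *Krt16* most cells had 0 UMIs, so the share chiefly counts their scarcity (1490 and 3102 UMIs in all epithelial cells, against 207742 of *Krt13*). Squamous-like cells, 1.62% of epithelial cells, held 19.9% of *Krt13*, 16.2% of *Krt6a*, 9.03% of *Krt4* and 2.67% of *Krt1* UMIs. A single cell held up to 1619 UMIs of *Krt13*, 551 of *Krt6a* and 365 of *Krt16*, but never more than 5 of *Krt1* or 11 of *Krt10*.

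*Krt16* in particular came from few cells. Those with 10 or more UMIs numbered 50 among 28200 epithelial cells, 6, 3 and 41 in libraries 1, 2 and 3, and held 77.9% of its UMIs. All 50 had *Krt6a*, 48 had *Krt13*, 46 *Krt4* and 27 *Krt6b*, and 9 had *Mki67*. Of these cells 15 were Squamous-like, 24 passed both the squamous and the secretory gate, 7 were Basal-like and 4 Secretory-like. They were deep cells, at a median of 31145 UMIs. The 23 cells with 10 or more *Krt6b* UMIs, 20 of them in library 3, all had *Krt13*, *Krt4* and *Krt6a*, and 17 had *Krt16*. The part of undetected doublets and of depth in these cells was not tested.

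The next question was whether the abundant keratins already differ among Basal-like cells that carry different regional genes. *Tmprss11a*, a serine protease of squamous mucosa, and *Nkx2-1*, the lung and airway transcription factor, were used to split them: cells with a *Tmprss11a* and no *Nkx2-1* UMI (1602, 1595 and 5006 in libraries 1, 2 and 3) against cells with the reverse (562, 341 and 1291). The *Tmprss11a* cells were deeper in every library, at medians of 16837.5, 19903 and 16377.5 UMIs against 14757, 17385 and 11996. *Krt13* was at 719, 262 and 368 CPM in the *Tmprss11a* cells and at 13.8, 10.6 and 33.5 CPM in the *Nkx2-1* cells. *Krt4* was at 595, 374 and 530 CPM against 78.9, 59.9 and 110 CPM, and *Krt6a* at 207, 73.5 and 186 CPM against 10.3, 9.26 and 15.3 CPM. For each of these 3 genes every *Tmprss11a* library was above every *Nkx2-1* library. Basal-like cells with both genes (462, 431 and 1834) or with neither (339, 245 and 624) were on neither side. Cells with both had means of 270 CPM for *Krt13*, 266 for *Krt4* and 185 for *Krt6a*, and cells with neither 229, 280 and 84.2 CPM. For *Krt6a* the cells with both (152 to 221 CPM) overlapped the *Tmprss11a* cells, so a *Nkx2-1* UMI did not by itself go with a low level. In each library the *Nkx2-1* cells were above the Fibroblast-like cells of the same library for *Krt13*, which held 9.20, 5.23 and 24.9 CPM.

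Of the 6 members tested 3 were higher in the *Tmprss11a* cells and 0 lower, where 11.5% of 15112 genes were called higher. *Krt13* was 23.1-fold higher (log2 4.53 ± 0.52 SE, edgeR adjusted p = 0.000687), *Krt6a* 13.3-fold (3.74 ± 0.40, adjusted p = 0.000496) and *Krt4* 6.16-fold (2.62 ± 0.24, adjusted p = 0.000226). *Krt16* was at 2.50, 1.16 and 2.44 CPM against 0.37, 2.19 and 1.25 CPM, overlapping, with log2 0.77 (adjusted p = 0.346). *Krt1* (-0.23, adjusted p = 0.455) and *Krt10* (0.14, adjusted p = 0.454) did not pass. *Krt6b* was too rare to test, with 16, 4 and 67 UMIs against 0, 0 and 4.

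The 3 calls were kept without each library in turn and with the library as a block, when 22.5% of genes were higher. When *Tmprss11a* and *Nkx2-1* were called after thinning each cell to 5000 UMIs, *Krt13* had log2 2.97 (edgeR adjusted p = 0.00745), *Krt6a* 2.43 (adjusted p = 0.00156) and *Krt16* -0.51. The *Tmprss11a* cells also held less fibroblast RNA, with the 6 fibroblast markers summing to 102 to 143 CPM against 551 to 880 CPM, and its part in the folds was not tested.

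The same split separated other squamous genes, where 1776 of the 15112 genes tested were lower. *Tmprss11a* is itself a gene of squamous mucosa, so counts of related genes were partly set by the split. Of 22 cornified envelope and squamous differentiation genes 16 were higher and 1 lower, led by involucrin (*Ivl*, log2 4.02), *Lgals7* (3.85), *Klk10* (3.66) and *Sprr2a3* (3.46), and of 24 squamous regulators 9 were higher and 0 lower, led by *Gata3* (2.62), *Grhl3* (2.58), *Zfp750* (2.47) and *Sox15* (2.21). Other keratins went both ways, 6 higher and 2 lower of 11, with *Krt80* (2.54), *Krt17* (1.40) and *Krt15* (1.21) higher and *Krt18* (-1.33), a simple epithelial keratin, lower. Wound edge genes also went both ways, 4 higher and 3 lower of 18, with *Areg* (3.33) and *Plau* (2.18) higher and *Fst* (-2.69) and *Slpi* (-2.65) lower. Of 20 cycling genes 12 were higher and 0 lower (*Mki67* 3.90), with summed levels of 394 to 654 CPM against 252 to 293 CPM, and of 20 dissociation response genes 1 was higher (*Jund* 0.61). The block gave 18 cycling genes higher and 0 lower, 7 wound edge genes higher and 3 lower, 13 regulators higher and 0 lower, and 5 dissociation response genes higher and 2 lower, while other keratins (7 higher, 2 lower) and cornified genes (17 higher, 1 lower) changed by 1 gene each, where the block called 3407 genes higher and 3124 lower of 15112.

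Since *Krt6a*, *Krt6b* and *Krt16* are called hyperproliferation keratins, Basal-like cells with and without a *Mki67* UMI were compared (162, 70 and 654 cells against 2803, 2542 and 8101). *Mki67*+ cells were deeper in every library, at medians of 18755.5, 21533.5 and 20087.5 UMIs against 15146, 18708 and 14476. *Krt13*, not a wound keratin, had the larger of the called differences. It was at 1107, 598 and 625 CPM in *Mki67*+ and at 454, 200 and 271 CPM in *Mki67*- cells, with every *Mki67*+ library above every *Mki67*- library. *Krt4* was at 639, 534 and 533 CPM against 410, 288 and 421 CPM, also without overlap. *Krt6a* was at 237, 127 and 437 CPM against 152, 77.1 and 143 CPM, where library 2 overlapped. *Krt16* was at 0.66, 0.67 and 6.79 CPM against 1.91, 1.14 and 1.76 CPM, higher in library 3 and lower in libraries 1 and 2, on 2, 1 and 90 UMIs.

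Of the 7 members 2 passed, where 6.12% of 15413 genes were called higher: *Krt13* 2.55-fold higher (log2 1.35 ± 0.32 SE, edgeR adjusted p = 0.0272) and *Krt4* 1.55-fold (0.63 ± 0.15, adjusted p = 0.0298). *Krt6a* had log2 1.16 ± 0.38 (adjusted p = 0.0868) and passed with the library as a block (1.08 ± 0.14, adjusted p = 1.52e-05), when 3 members were higher and 14.3% of genes were. Without a block it also passed with no filter on low counts (1.14, adjusted p = 0.0111), with split genes called at 5000 UMIs (1.30, 0.0204) and with stricter gates (1.33, 0.0375). The stricter gates also asked for 2 *Mki67* UMIs in *Mki67*+ cells, which left 98, 30 and 387 of them. In that fit *Krt16* passed too (2.07, edgeR adjusted p = 0.036) and 4 members were higher. These fits called 1024 of 25499, 1733 of 15193 and 1830 of 15341 genes higher, in the same order. *Krt6b* (0.98, adjusted p = 0.534), *Krt16* (1.27, adjusted p = 0.207), *Krt1* (-0.20, adjusted p = 0.613) and *Krt10* (0.20, adjusted p = 0.385) did not pass.

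With a library left out, calls in *Mki67*+ cells were lost while most folds kept their size. Without library 1, *Krt4* had log2 0.61 (edgeR adjusted p = 0.254). Without library 2, *Krt13* had log2 1.28 (edgeR adjusted p = 0.0685) and *Krt4* 0.53 (0.068). In that fit *Krt6a* passed at 1.23 (edgeR adjusted p = 0.0336), where 733 of 15550 genes were higher. Without library 3 no member passed, with log2 1.39 for *Krt13* (0.0917), 0.75 for *Krt4* (0.0536) and 0.70 for *Krt6a* (0.307), and the fold of *Krt16* was -1.20. Within the *Tmprss11a* cells, *Krt13* was higher with *Mki67* in every library, at 1269, 561 and 681 CPM against 662, 251 and 327 CPM, and so was *Krt4*, at 712, 585 and 581 CPM against 583, 366 and 524 CPM. *Krt6a* there was equal in library 1 and higher in libraries 2 and 3, at 209, 105 and 405 CPM against 207, 72.3 and 157 CPM.

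Among the lists, 19 of 19 cycling genes were higher in *Mki67*+ cells, a count largely set by choosing cells on *Mki67*. The summed level of the cycling list, *Mki67* included, was 2397 to 3363 CPM against 285 to 319 CPM. Cornified and squamous differentiation genes were higher in 6 and lower in 0 of 22, with *Lgals7* (log2 1.78), *Csta1* (1.29), *Tgm1* (1.26) and *Ecm1* (0.68). Of 18 wound edge genes 1 was higher, the urokinase gene *Plau* (1.83), and of 24 squamous regulators 2, *Sox15* (0.68) and *Pitx1* (0.61), shares near the 6.12% of all genes called higher. Of 13 other keratins 3 were lower and none higher, where 686 of 15413 genes were lower, *Krt18* (-1.04), *Krt23* (-0.95) and *Krt19* (-0.68), and of 20 dissociation response genes 0 passed in edgeR's test. The library block, with 2208 genes higher and 1959 lower of 15413, changed these counts to 13 cornified genes higher and 1 lower, 4 wound edge genes higher and 1 lower, 7 regulators higher and 2 lower, and 5 other keratins higher and 3 lower, with *Krt76* (1.62) and *Krt14* (0.83) higher. With the block 9 dissociation response genes were lower and 1 higher, among them *Dusp1* (-0.78) and *Fos* (-0.73) lower.

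Basal-like cells with a UMI of at least 2 of *Hbegf*, *Atf3* and *Fosl1*, genes switched on at wound edges and by stress, were compared with cells that had none (326, 298 and 342 against 1953, 1622 and 6395 cells). The former are called injury-response cells after these genes only, since no injury is described for these mice. They were deeper in every library, at medians of 19644.5, 24536.5 and 21258 UMIs against 13995, 16657 and 13629. *Krt16* was the member that passed. It was at 7.88, 5.93 and 9.07 CPM in the injury-response cells and at 0.21, 0.22 and 1.31 CPM in the others, with no overlap. *Krt6a* was at 663, 121 and 427 CPM against 54.0, 54.4 and 132 CPM, *Krt13* at 1341, 320 and 633 CPM against 344, 158 and 239 CPM, and *Krt4* at 898, 374 and 634 CPM against 290, 242 and 375 CPM. In library 2 each of these 3 was low enough to overlap the cells without injury genes, but within every library the injury-response cells were higher.

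The edgeR test called 1 of 7 members, where 0.459% of 14593 genes were called higher: *Krt16* was 12.4-fold higher (log2 3.64 ± 0.65 SE, adjusted p = 0.0474). *Krt6a* (2.44 ± 0.61, adjusted p = 0.0914), *Krt4* (1.18 ± 0.31, adjusted p = 0.103) and *Krt13* (1.75 ± 0.51, adjusted p = 0.127) did not pass. Still without a block, DESeq2 called 3 members, *Krt16*, *Krt4* (adjusted p = 0.00276) and *Krt6a* (0.0162), where 605 of 14311 genes with an adjusted p were higher. Without a filter on low counts edgeR called 4, *Krt16*, *Krt6a* (0.0138), *Krt4* (0.0309) and *Krt13* (0.0362), where 200 of 24900 genes were higher. The folds were of about the same size. With the library as a block 4 members were higher, and 7.5% of genes: *Krt16* (3.96, adjusted p = 0.00852), *Krt6a* (2.23, adjusted p = 0.0206), *Krt13* (1.56, adjusted p = 0.00615) and *Krt4* (1.09, adjusted p = 0.0158). *Krt6b* (1.57, adjusted p = 0.409), *Krt1* (-0.31) and *Krt10* (0.19) did not pass without the block.

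The *Krt16* fold kept its direction and most of its size in the unpaired fit, but the call was close to the threshold. It was lost without library 1 (log2 3.26, edgeR adjusted p = 0.536), without library 2 (3.45, 0.1), with stricter gates (3.54, 0.0759), without doublet removal (3.68, 0.0572) and with the split genes called at 5000 UMIs (3.58, 0.0766), and kept without library 3 (5.07, 0.0275). The fit without library 3 called 17 of 14711 genes higher. Within the *Tmprss11a* cells alone *Krt16* was at 8.95, 4.87 and 9.55 CPM against 0.15, 0.37 and 1.39 CPM.

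Dissociation response genes, which tissue digestion itself can switch on, moved with this split. Of 19 tested 10 were higher and 0 lower, led by *Fosb* (log2 5.12), *Egr1* (3.98), *Fos* (3.61) and *Nr4a1* (3.33), and the list summed to 4517 to 9058 CPM against 2168 to 2313 CPM. *Atf3*, a gene of the split, is also on that list and is part of its sum but not of the test. No injury is described for these mice, and a stress response in the tissue cannot be told apart here from a response to dissociation. The 6 fibroblast markers also moved with the split, at 77.9 to 128 CPM in cells with 2 or 3 injury genes and 272 to 467 CPM in cells with none, without overlap, and their part in the keratin folds was not tested. Among the other lists, 1 of 22 cornified genes was higher (*Ivl* 2.01), 1 of 17 wound edge genes (*Plaur* 3.41), 3 of 24 squamous regulators (*Ovol1* 1.89, *Zfp750* 1.45 and *Klf4* 1.43), 0 of 10 other keratins and 0 of 20 cycling genes, and none was lower in edgeR's test. Of all 14593 genes that test called 67 higher and 107 lower. With the library as a block, the fit in which 4 members were called, 13 cornified genes were higher, 8 wound edge genes, 10 regulators, 5 other keratins, 2 cycling genes and 17 dissociation response genes, and none of any list was lower. Of all 14593 genes the block called 1094 higher and 887 lower, so the count of cycling genes was near that share. Those of largest fold were *Cxcl2* (4.31), *Areg* (3.50) and *Cxcl1* (3.45) among wound edge genes, *Lypd3* (1.87) and *Tgm1* (1.76) after *Ivl* among cornified genes, and *Krt23* (1.29) and *Krt17* (1.18) among keratins.

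The study compared *Lrig1*+ with *Lrig1*- cells, and this was done here within Basal-like cells by the presence of a *Lrig1* UMI (1747, 1847 and 5571 against 1218, 765 and 3184 cells). *Krt6a* was lower in *Lrig1*+ cells, at 110, 57.9 and 125 CPM against 245, 139 and 283 CPM, with every *Lrig1*+ library below every *Lrig1*- library. *Krt13* was at 387, 206 and 248 CPM against 702, 231 and 442 CPM, lower within each library but overlapping between libraries. *Krt4* differed little, at 448, 302 and 435 CPM against 381, 274 and 425 CPM. *Krt16* was at 0.53, 1.35 and 1.04 CPM against 4.25, 0.47 and 5.09 CPM, lower in libraries 1 and 3 and higher in library 2. *Lrig1*+ cells were deeper in every library, with medians of 16898, 19763 and 16244 UMIs against 12661, 15926 and 11708.5.

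Without a block edgeR called 0 of 15956 genes (0% lower), with 728 at an unadjusted p under 0.05, while DESeq2 called 63, *Krt6a* among them. In the edgeR fit without a block *Krt6a* had log2 -1.20 ± 0.33 (adjusted p = 0.726). With the library as a block edgeR called 1753 genes, and 3 of 7 members were lower in *Lrig1*+ cells, where 5.98% of genes were. *Krt6a* fell by 1.21 on the log2 scale (adjusted p = 1.1e-08), *Krt16* had log2 -1.81 ± 0.46 (adjusted p = 0.0275) and *Krt13* log2 -0.65 ± 0.10 (adjusted p = 0.00163). *Krt4* (0.12, adjusted p = 0.0798) did not pass. With *Lrig1* called after thinning to 5000 UMIs and the block kept, *Krt4* was lower as well (-0.24, edgeR adjusted p = 0.0034). That fit called 1909 of 15758 genes lower. Stricter gates with the block called *Krt6b* in addition to the 3 (-1.17, edgeR adjusted p = 0.043), where 966 of 15014 genes were lower. That setting also raised the number of *Lrig1* UMIs asked of *Lrig1*+ cells, which left 973, 1105 and 3420 of them. The gates as first written with the block called *Krt6a* alone (-1.46, edgeR adjusted p = 0.00823), where 153 of 13949 genes were lower.

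Within the *Tmprss11a* cells *Krt6a* was at 137, 52.6 and 136 CPM with *Lrig1* and at 371, 146 and 327 CPM without it. In the fit with the block, where 799 genes were higher and 954 lower of 15956, 15 of 20 cycling genes were lower and 0 higher in *Lrig1*+ cells, led by *Ube2c* (log2 -1.44), and 10 of 20 wound edge genes were lower and 1 higher, led by the neutrophil chemokines *Cxcl2* (-1.80) and *Cxcl1* (-1.63). Of 22 cornified genes 9 were lower and 2 higher (*Lgals7* -0.97, *Klk10* -0.90), of 13 other keratins 2 were lower and 5 higher (*Krt14* -0.83, *Krt8* 0.50), of 24 squamous regulators 3 were lower and 5 higher, and of 20 dissociation response genes 4 were lower and 1 higher. The cycling genes summed to 335 to 518 CPM in *Lrig1*+ and 511 to 774 CPM in *Lrig1*- cells.

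In Squamous-like cells the same split left few cells (47, 62 and 205 *Lrig1*+ against 48, 14 and 124 *Lrig1*-). *Krt13* was at 4194, 2431 and 3511 CPM against 4948, 1370 and 3679 CPM and *Krt6a* at 756, 491 and 1052 CPM against 1340, 410 and 2182 CPM, both overlapping, with library 2 going the other way from libraries 1 and 3. *Krt4* was higher with *Lrig1* in each library, at 1583, 1172 and 1679 CPM against 1359, 655 and 1294 CPM, though the ranges overlapped. *Krt16* was at 2.45, 1.83 and 9.64 CPM against 13.1, 0 and 171 CPM. The 0 stands for 0 of 297812 UMIs in 14 cells, which allows up to 10.1 CPM.

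Without a block edgeR called 0 of 10076 genes (0%) in this comparison, with 738 at an unadjusted p under 0.05 and 37 called by DESeq2. With the block it called 189 genes, and 1 of 7 members was lower, where 0.764% of genes were: *Krt16* (log2 -3.90 ± 0.38, adjusted p = 0.00018). The *Lrig1*- level was far the highest in library 3, and *Lrig1*- cells of library 2 had no *Krt16* UMI. Without library 3 *Krt16* was too rare to test, so its fold rests on that library. With *Lrig1* called at 5000 UMIs and the block kept no gene was called. *Krt4* (0.44, adjusted p = 0.0761), *Krt6a* (-0.63, adjusted p = 0.106) and *Krt13* (0.13, adjusted p = 0.775) did not pass. The fibroblast markers summed to 47.7 to 54.8 CPM in *Lrig1*+ and 67.2 to 178 CPM in *Lrig1*- Squamous-like cells, without overlap, and their part was not tested. In this fit, with 112 genes higher and 77 lower of 10076, 3 of 9 other keratins were higher and 1 lower (*Krt19* 1.18, *Krt14* -1.33), 4 of 19 cornified genes lower (*Klk10* -1.14), 3 of 8 wound edge genes lower (*Plaur* -1.71, *Fosl1* -1.61), 2 of 20 cycling genes lower (*Mcm2* -1.83), 1 of 20 dissociation response genes lower (*Ier3* -1.20) and 0 of 23 regulators called, where without the block no list had a call. The difference between the *Lrig1* effects in the 2 classes was tested as an interaction with the block, which called 9 genes and no member (*Krt13* 0.73, adjusted p = 0.325; *Krt16* -1.98, adjusted p = 0.477).

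**Figure D3:**
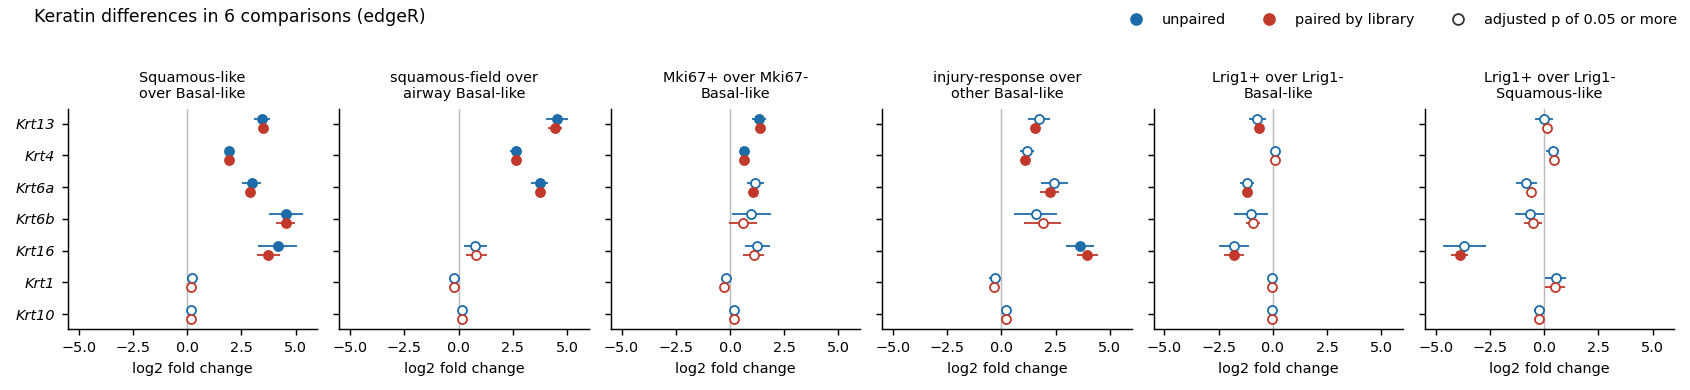
Log2 fold change ± SE of each keratin in the 6 comparisons, from edgeR without (blue) and with (red) the library as a block; open points have adjusted p of 0.05 or more. *Krt13*, *Krt4* and *Krt6a* are higher in the squamous and *Tmprss11a* comparisons in both fits, *Krt6a* is lower in *Lrig1*+ Basal-like cells with the block, and *Krt1* and *Krt10* have open points in every comparison.

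**Figure D4:**
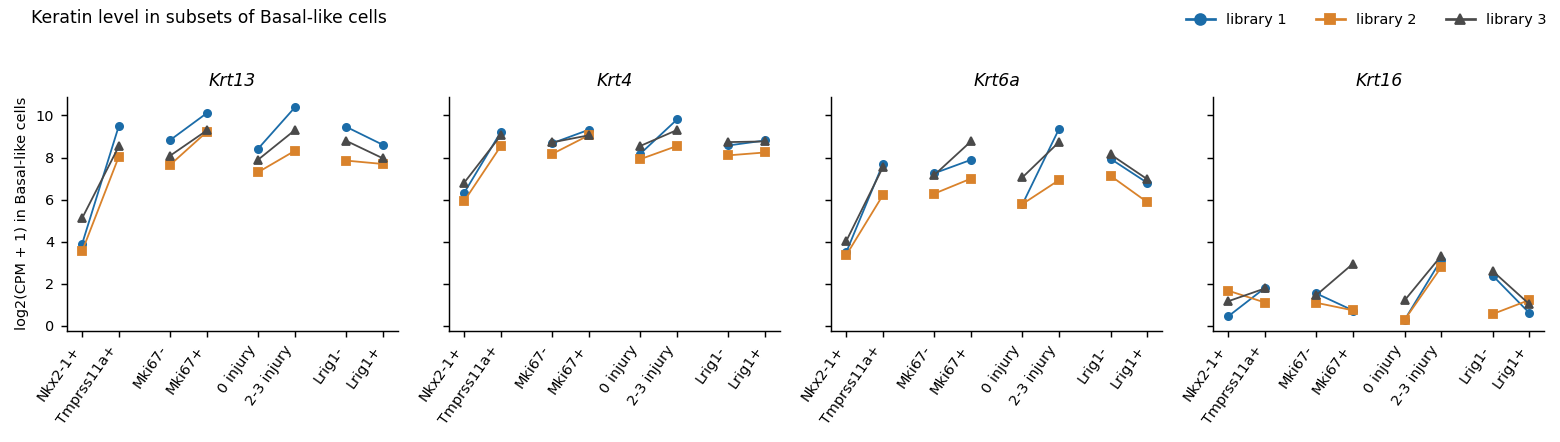
Level of *Krt13*, *Krt4*, *Krt6a* and *Krt16* as log2(CPM + 1) in the paired subsets of Basal-like cells; each line joins the 2 subsets of 1 library. The lines of *Krt13*, *Krt4* and *Krt6a* run steeply from *Nkx2-1* to *Tmprss11a* cells in all 3 libraries, and those of *Krt16* run upward in injury-response cells.

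These comparisons split the same Basal-like cells in different ways, so their calls are not independent of one another. Which members occur in the same cell was therefore counted directly, on cells thinned to 5000 UMIs, as the odds ratio of a pair within each library. To avoid dividing by 0, 0.5 was added to each count. Odds ratios are given as a description, since cells of a library are not replicates and a cell richer in captured RNA can have more of both genes.

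The abundant keratins occurred together in Basal-like cells. Of Basal-like cells with *Krt13*, 77.8% had *Krt4*, against 45.7% of those without it (mean log2 odds ratio over the 3 libraries 2.06), and 42.7% had *Krt6a*, against 11.8% (2.50). *Krt4* and *Krt6a* had a mean log2 odds ratio of 1.43. No UMI of any of the 3 was found in 39.8% ± 7.39 of Basal-like cells (SD, n = 3), *Krt4* without the others in 31.4%, *Krt13* and *Krt4* in 7.64% and all 3 in 7.42%. *Krt13* alone, without its type II partner or *Krt6a*, was found in 3.31%. Squamous-like cells shifted to the full set: all 3 genes in 47.6% ± 9.10, *Krt13* and *Krt4* in 15.3%, *Krt4* alone in 14.3% and none in 7.27%.

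Rarer pairs rested on few cells. In Basal-like cells *Krt16* occurred with *Krt13* (mean log2 odds ratio 3.10, in 48 cells) and with *Krt6a* (2.78, in 51 cells). In Squamous-like cells all 31 thinned cells with *Krt16* had *Krt6a* (2.62). The cornified pair showed no such pattern: *Krt1* with *Krt10* in Basal-like cells had a mean log2 odds ratio of -0.27, ranging from -0.81 to 0.38 over the libraries, in 71 cells, and *Krt13* with *Krt10* 0.04.

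*Mki67* occurred with the abundant keratins in Basal-like cells and less evenly in Squamous-like cells. In Basal-like cells 6.39% of those with *Krt13* had a *Mki67* UMI, against 1.63% of those without it (mean log2 odds ratio 2.00), and the odds ratio was 1.86 for *Krt6a*, 1.45 for *Krt4* and 1.06 for *Krt10*. For *Krt16* it was 2.26 on 9 cells and for *Krt1* -0.90 on 10 cells. The lowest share with *Mki67* in a library was 0% for both genes, so these means depend on the 0.5 added to each count. Squamous-like cells gave 1.76 for *Krt6a* (1.40 to 2.24 over the libraries), 1.43 for *Krt13* (0.16 to 2.10, lowest in library 3) and 0.45 for *Krt4* (-0.06 to 0.71), on 14, 2 and 54 cells with *Mki67* in libraries 1, 2 and 3.

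**Figure D5:**
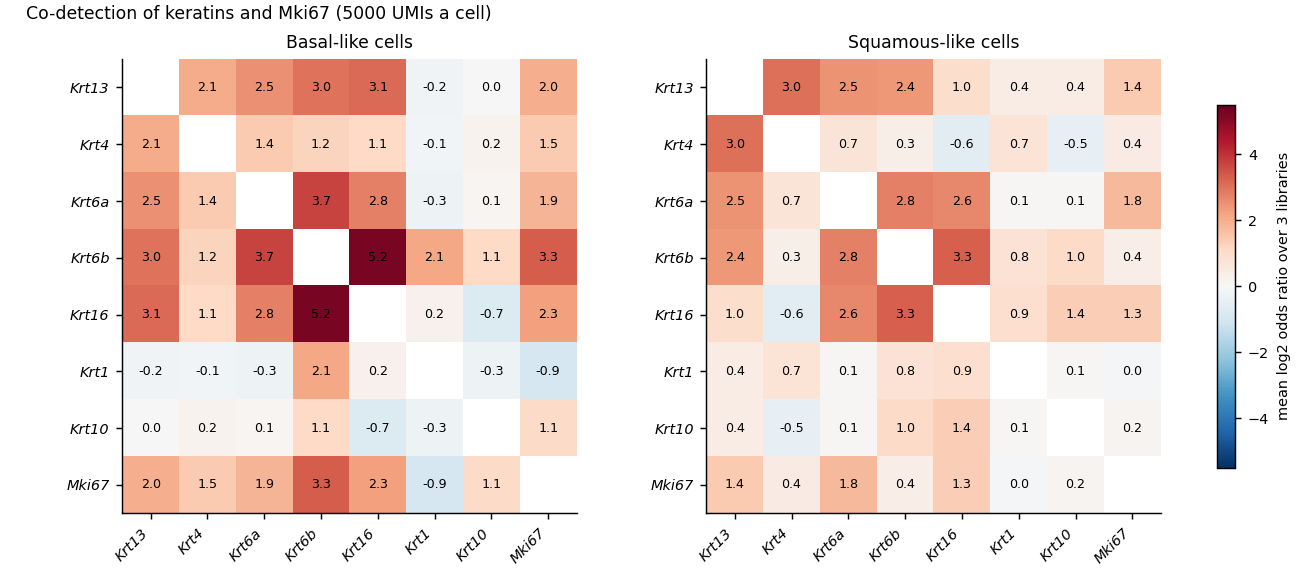
Mean log2 odds ratio over the 3 libraries for the 7 keratins and *Mki67*, pair by pair, in Basal-like and Squamous-like cells thinned to 5000 UMIs. *Krt13*, *Krt4* and *Krt6a* occur together in both classes, *Krt16* occurs with *Krt6a* in both, and *Krt1* and *Krt10* show ratios near 0 with *Krt13* and *Krt6a*, while pairs of *Krt6b* rest on 27 Basal-like cells. Of these, 1 cell also had *Krt16* and 3 had *Mki67*, so those ratios depend on the 0.5 added to each count. The same holds for *Krt16* with *Mki67*, where a library of each class had no cell with both.

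Across 34 sums of cells by library and class (13 classes), the genes whose level was most like each member among 10958 genes were listed as a description, since sums of a library share its depth and cells. *Krt13* was most like *Ces1h* (Pearson r = 0.98), *Cwh43* (0.98) and *Krt6a* (0.97), and *Krt6a* most like *Krt13* (0.97), *Chit1* (0.96) and *Gm94* (0.96). *Krt4* was most like *Cers3*, *Krt15* and *H60c* (0.96 each). The rare wound keratins shared neighbours, *Serpinb2* (0.91), *Lypd3* (0.90) and *Krt16* (0.90) for *Krt6b* and *Serpinb2* (0.90), *Sprr1a* (0.89) and *Lypd3* (0.85) for *Krt16*. *Krt1* was most like *Tmc4*, *Myb* and *Sox2* (0.95 each) and *Krt10* most like *Srp68* (0.90), *Gpc1* (0.90) and *Robo1* (0.86), and none of these was a keratin.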

How the data were processed

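Single-cell 3′ libraries (Chromium GEM-X v4) of tdTomato-sorted larynx cells were deposited by the authors as UMI count matrices, from Cell Ranger 8.0.1 on mm39 per the labels' processing notes, and these counts were used as deposited. Barcodes with 500 to 8000 genes, 1000 to 40000 UMIs and at most 8% mitochondrial counts were kept (the study's limits, read with genes and UMIs exchanged), and simulated-doublet neighbours were removed at 0.4% per 1000 barcodes (1030, 326 and 3495 in libraries 1, 2 and 3). Classes came from marker UMI gates. As first written, the secretory gate held *Bpifa1* and *Cyp2f2* and the squamous gate asked for 3 markers. *Bpifa1* reached 3 UMIs in up to 75.5% of Fibroblast-like cells. The first gates gave 0, 5 and 27 Squamous-like cells in libraries 1, 2 and 3. Both gates were revised after these values had been seen, and the squamous gate was loosened to 2 markers. Barcodes with markers of at least 5 of 6 classes were set aside. The keratins and the gene lists were chosen with earlier results of these data known.

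For each library the UMI counts of a group of cells were added up, CPM computed, and the 6 comparisons tested with edgeR 4.0.16 (TMM, filterByExpr, quasi-likelihood, two-sided, Benjamini-Hochberg at 0.05; R 4.3.3, limma 3.58.1), leaving out the genes that define each group. The steps were tested on simulated data. Both sides of each comparison come from the same library and so the same animals, and their deviations from the group means correlated at 0.21 to 0.94 in every library and comparison, so the fit with the library as a replicate block is given where it changes a member's call or a list's count. Alternatives were DESeq2 1.42.0, RLE size factors, no filter, stricter gates, no doublet removal, leaving out each library and split genes called at 5000 UMIs; the first gates, keeping mixed-profile barcodes and combining the block with other choices were added after seeing the data. Stricter gates also raised the number of UMIs of *Tmprss11a*, *Nkx2-1*, *Mki67* or *Lrig1* asked of cells called positive. Named genes were the 7 keratins, the 3 genes most like each, and up to 4 called genes of largest fold per list and comparison. Floors for counts of 0 (3 UMIs) cover counting error only. Python 3.11.15, numpy 2.4.6, scipy 1.17.1, pandas 2.3.3 and scikit-learn 1.9.0 were used.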

Additional observations from a re-analysis of the deposited data

Results flagged for a closer look

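The barcodes of library 3 that carried markers of at least 5 of 6 unlike classes entered none of the main fits, and all 7 keratins stood above the 3-UMI floor in their sum. *Krt13* was at 829 CPM, *Krt4* at 466 CPM, *Krt6a* at 353 CPM, *Krt6b* at 14.3 CPM, *Krt16* at 26.7 CPM, *Krt1* at 15.3 CPM and *Krt10* at 41.8 CPM. A *Krt13* UMI was present in 97.2% of these 3475 barcodes, *Krt4* in 90.4% and *Krt6a* in 82.9%, while the middle 50% of them spanned 5379.5 to 6135 UMIs. Their level of *Krt13* was above that of Basal-like cells of the same library, 306 CPM, and below that of Squamous-like cells, 3570 CPM. What these barcodes hold was not tested.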

How the results depend on the processing

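With the library as a replicate block the number of genes called rose in every comparison, from 2045 to 4843 (Squamous-like), 3514 to 6531 (*Tmprss11a* against *Nkx2-1*), 1629 to 4167 (*Mki67*), 174 to 1981 (injury response), 0 to 1753 (*Lrig1*, Basal-like) and 0 to 189 (*Lrig1*, Squamous-like); for members, calls changed in the last 4 as given above and in no other comparison. Leaving out a library gave 35 to 1899, 1026 to 2825, 351 to 1254, 0 to 18, 0 to 0 and 0 to 1 genes in the same order. DESeq2 called 1129 genes for injury response, 63 and 37 for *Lrig1*, and no filter on low counts 597 for injury response and 196 for *Lrig1* in Squamous-like cells, *Krt16* among them. Stricter gates gave 4366 genes for Squamous-like and 3905 for *Mki67*, and 1815 for *Lrig1* in Basal-like cells with the block. Without doublet removal injury response had 87 genes and, with the block, *Lrig1* 1787 and 180. Split genes called at 5000 UMIs gave 3385 for *Mki67*, 55 for injury response and, with the block, 3195 for *Lrig1* in Basal-like cells. The gates as first written gave 1461, 499 and 29 for *Tmprss11a*, *Mki67* and injury response and, with the block, 231 for *Lrig1* in Basal-like cells. Keeping mixed-profile barcodes with the block gave 1786 and 189 for *Lrig1*. The cause of these changes was not tested.

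Members whose log2 fold changed sign were mostly near 0 and not called. For *Krt16*, *Tmprss11a* against *Nkx2-1* at 5000 UMIs gave -0.51, and *Mki67* with a library left out gave -1.20 to 1.77 (-0.18 to 1.42 for *Krt6b*), lowest without library 3. *Krt10* gave -0.0017 for *Mki67* with the first gates. For *Lrig1* in Basal-like cells, *Krt4* gave -0.25 at 5000 UMIs (-0.24 with the block, called) and -0.023 with the first gates (-0.012 with the block); *Krt1* gave -0.084 to 0.034 with a library left out, positive without library 1, 0.085 with stricter gates (0.086 with the block) and 0.047 with the first gates (0.081 with the block); and *Krt10* gave -0.087 to 0.068, positive without library 3, and 0.039 with the first gates. For *Lrig1* in Squamous-like cells, *Krt13* gave 0.13 with the block (0.15 without doublet removal, 0.13 with mixed-profile barcodes), -0.20 to 0.19 with a library left out, and 0.045 without library 3; *Krt4* gave -0.028 at 5000 UMIs (-0.011 with the block) and *Krt1* -0.0060 (-0.034 with the block). Stricter gates could not give the *Lrig1* comparison in Squamous-like cells, nor the first gates either Squamous-like comparison, since a sum had under 10 cells. Counted over genes, groups of cells and settings, shares of cells with a UMI moved by more than 1 SD in 71 cases and by less in 132. Co-detection values counted as moved in 7 cases and as the same in 49. *Krt6b* and *Krt16* rest on few counts, with 128 and 446 UMIs in all Basal-like cells.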
